A study of Homo sapiens with 6 samples.

Results

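TXNIP, GFPT2, SLC2A1 and ANGPTL4 are 4 genes linked to the uptake, use or sensing of glucose and other nutrients. They were taken by symbol from the table of differentially expressed genes that the authors deposited, where they are 4 of 405 named genes. All 4 had a probe set in the full value table of 32321 probe sets, which also held 398 of the 405 named genes and supplied every level given here. RNA came from the human cell line Panc-1, which was established from a ductal carcinoma of the pancreas and was grown in DMEM with 10% serum. The cells had been transfected with Lipofectamine, either with the empty vector pCIG or with pCIG-Gli3T, which carries Gli3T, a form of GLI3 that the submitters describe as a dominant-negative repressor of Gli. Both constructs mark transfected cells with GFP, and cells with GFP were collected by sorting at 24 h. There were 3 Affymetrix arrays per group, 6 in all. No label assigns the arrays to separate cultures, and their spread may therefore be technical. With so few arrays the precision is limited by their number.

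TXNIP is an alpha-arrestin whose gene is switched on when glucose enters the cell, through the transcription factors MondoA or ChREBP with their partner MLX. Its protein binds thioredoxin and lowers glucose uptake, in part by drawing the transporter GLUT1, the product of SLC2A1, away from the cell surface. GFPT2 encodes a form of glutamine fructose-6-phosphate transaminase, which diverts sugar phosphate into the hexosamine pathway that makes UDP-N-acetylglucosamine for glycosylation. ANGPTL4 encodes a secreted inhibitor of lipoprotein lipase and is known to be induced by fasting through PPAR receptors and by low oxygen.

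The stretches upstream of the 4 genes, and of the TXNIP relative ARRDC4, are shown because glucose-responsive transcription is known to act through paired E-box-like elements close to the TXNIP start. Each is the 250 bases before the gene's start, 5′ to 3′ along the gene's strand, from RefSeq with GRCh38.p14 coordinates. TXNIP has more than 1 listed start, and the most upstream of its 2 starts was used. Capitals mark matches on either strand to 7 motifs. These were the E-box CACGTG, the pair of E-box-like sites CACGNGNNNNNCACGNG, the Gli core CCACCCA, the forkhead core GTAAACA, the hypoxia response core ACGTG, the CCAAT box CCAAT and the TATA element TATAAA. The hypoxia core lies inside the E-box, so a match to the latter is also a match to the former. The windows are chr1:145996580-145996829 (minus strand) for TXNIP, chr5:180353337-180353586 (minus strand) for GFPT2, chr1:42958869-42959118 (minus strand) for SLC2A1, chr19:8363905-8364154 (plus strand) for ANGPTL4 and chr15:97960453-97960702 (plus strand) for ARRDC4.
TXNIP: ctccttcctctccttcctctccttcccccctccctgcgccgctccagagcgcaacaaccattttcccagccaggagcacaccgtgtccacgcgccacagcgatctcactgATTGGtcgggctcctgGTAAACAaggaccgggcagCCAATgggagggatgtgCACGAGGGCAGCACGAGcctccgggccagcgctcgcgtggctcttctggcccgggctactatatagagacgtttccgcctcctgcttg
GFPT2: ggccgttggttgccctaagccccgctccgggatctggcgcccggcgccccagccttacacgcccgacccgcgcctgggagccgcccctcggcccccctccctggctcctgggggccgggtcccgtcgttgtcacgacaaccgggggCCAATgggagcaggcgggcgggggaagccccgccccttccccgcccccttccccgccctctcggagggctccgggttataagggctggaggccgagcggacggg
SLC2A1: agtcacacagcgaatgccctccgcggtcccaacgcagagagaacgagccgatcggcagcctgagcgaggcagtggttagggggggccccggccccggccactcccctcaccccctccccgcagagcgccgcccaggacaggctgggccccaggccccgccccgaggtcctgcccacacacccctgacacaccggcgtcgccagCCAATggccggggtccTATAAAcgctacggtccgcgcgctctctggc
ANGPTL4: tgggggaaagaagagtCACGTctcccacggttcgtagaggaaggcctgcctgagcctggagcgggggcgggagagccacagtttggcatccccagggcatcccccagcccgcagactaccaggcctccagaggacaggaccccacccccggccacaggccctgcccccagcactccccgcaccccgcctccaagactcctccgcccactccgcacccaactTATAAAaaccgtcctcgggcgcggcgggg
ARRDC4: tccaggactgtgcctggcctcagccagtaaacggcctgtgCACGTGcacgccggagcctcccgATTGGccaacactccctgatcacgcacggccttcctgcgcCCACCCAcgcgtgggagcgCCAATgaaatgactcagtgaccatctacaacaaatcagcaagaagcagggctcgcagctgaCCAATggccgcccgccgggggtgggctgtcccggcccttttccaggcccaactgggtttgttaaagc

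The TXNIP window held the paired E-box-like motif as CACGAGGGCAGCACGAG, from 88 to 72 bases before the start. Of the 35116 windows of the same length in the RefSeq promoter table, 16 (0.0456%) held such a pair. The pair was searched for because such elements are known near the TXNIP start, so this share is no test of the TXNIP match. The TXNIP window also held a forkhead core 124 to 118 bases before the start, a motif found in 2.98% of windows. CCAAT boxes lay on either side of that core, 1 on each strand, and 32.0% of windows held at least 1. GFPT2 had a CCAAT box 104 to 100 bases before the start and no other match. SLC2A1 had a CCAAT box 47 to 43 bases and a TATA element 31 to 26 bases before the start. ANGPTL4 had a TATA element 29 to 24 bases before the start and 1 hypoxia core 234 to 230 bases before it. TATA elements occurred in 10.7% of windows and hypoxia cores in 18.5%. None of the 4 members had a Gli core in these windows, and 8.17% of all windows had one. The ARRDC4 window held an E-box, found in 6.34% of windows, with the hypoxia core inside it, a Gli core and 3 CCAAT boxes. A match is a string of letters, not a measured site of binding, and motifs outside the windows were not searched.

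GLI3, the gene from which the construct derives, was checked first. Its probe set 8139212 read 9.20, 9.12 and 9.31 log2 in the empty-vector arrays and 8.00, 7.92 and 7.71 in the arrays labelled Gli3T. GLI3 was thus lower where the construct should be, with a log2 difference of -1.34 ± 0.10 (SE). Where its probes lie within the gene is not given in the sources used here, so this reading checks the labels only if they can detect the construct. The treated group is therefore named by its label throughout, and all directions rest on the labels. Empty vector replicate 1 stood apart from the other arrays. Its correlations with them over all probe sets were 0.980 to 0.985, whereas the 3 arrays labelled Gli3T correlated with each other at up to 0.996. Its quartiles were closer together, at 7.12 and 9.80 against 6.96 and 9.90 in replicate 2. The median SD over all probe sets was 0.18 log2 in the empty-vector group and 0.08 in the group labelled Gli3T. Values without that array are given beside each member. None of the 37 marker genes listed for ductal carcinoma lines, islet, adipocyte, fibroblast, leukocyte and endothelial cells was among the named genes, so the labelled cell type was not checked against markers here.

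The members had been chosen from the authors' list of genes that differ between these same groups. Their differences are therefore descriptions and carry no test. TXNIP was lower in the arrays labelled Gli3T, and GFPT2, SLC2A1 and ANGPTL4 were higher. For all 4 no array of one group lay within the range of the other, as was the case for 24.4% of all 32321 probe sets, 11.4% in the higher and 13.0% in the lower direction. A limma fit over all probe sets called 798 of them (2.47%) at an adjusted p of 0.05, 454 higher (1.40%) and 344 lower (1.06%). Of the 4 members 3 were among these calls and SLC2A1 was not, a count that their selection had largely settled. The number of calls changed greatly when 1 array was left out. It was 2178 without empty vector replicate 1, 69 without empty vector replicate 3, and 0, 1 and 0 without Gli3T replicate 1, 2 and 3. In a bulk sample of sorted cells, fewer cells with a transcript and less transcript per cell cannot be told apart.

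TXNIP (probe set 7904726) read 10.26, 10.46 and 10.47 log2 in the empty-vector arrays and 8.22, 8.39 and 8.27 in the arrays labelled Gli3T. All 3 arrays of each group lay close together, with the groups separated by a gap of 1.87. The means were 10.39 ± 0.12 (SD, n = 3) and 8.29 ± 0.08 (SD, n = 3), a log2 difference of -2.10 ± 0.08 (SE), or 4.29-fold. Set array against array, the 9 differences ran from -1.87 to -2.25, or 3.66-fold to 4.75-fold. Without empty vector replicate 1 the difference was -2.17. By the size of its difference TXNIP had rank 12 of all probe sets and rank 3 of the 398 named genes. It was the only lower member.

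GFPT2 (probe set 8116418) read 8.37, 9.44 and 9.46 in the empty-vector arrays and 10.95, 10.71 and 10.84 in the arrays labelled Gli3T. Empty vector replicate 1 lay more than 1 log2 below replicates 2 and 3, while the arrays labelled Gli3T lay between 10.71 and 10.95. The means were 9.09 ± 0.62 (SD, n = 3) and 10.84 ± 0.12 (SD, n = 3), a log2 difference of 1.74 ± 0.37 (SE), or 3.35-fold. Without empty vector replicate 1 it was 1.39, or 2.61-fold. The array pairs gave 1.25 to 2.58, or 2.38-fold to 5.97-fold, the widest range among the members. GFPT2 had the largest positive difference of the 398 named genes with all arrays in. Without empty vector replicate 1 another named gene had a larger one, at 1.41.

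SLC2A1 (probe set 7915472) read 10.95, 11.48 and 11.38 in the empty-vector arrays and 12.04, 12.00 and 12.03 in the arrays labelled Gli3T. The latter were nearly identical, and empty vector replicate 1 was again the lowest array. The means were 11.27 ± 0.28 (SD, n = 3) and 12.03 ± 0.02 (SD, n = 3), a log2 difference of 0.76 ± 0.16 (SE), or 1.69-fold. Without empty vector replicate 1 it was 0.60, or 1.51-fold. SLC2A1 had rank 204 by size among the 398 named genes, all of which differed by at least 0.58 log2. The glucose transporter gene was thus the member with the smallest difference.

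ANGPTL4 (probe set 8025402) read 9.66, 10.10 and 9.94 in the empty-vector arrays and 11.30, 11.19 and 11.29 in the arrays labelled Gli3T. At their closest arrays the groups were 1.09 apart, and empty vector replicate 1 was the lowest. The means were 9.90 ± 0.22 (SD, n = 3) and 11.26 ± 0.06 (SD, n = 3), a log2 difference of 1.36 ± 0.13 (SE), or 2.56-fold. Without empty vector replicate 1 the difference was 1.24, or 2.36-fold, so this gene leaned less on that array than GFPT2 did.

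**Figure D1:**
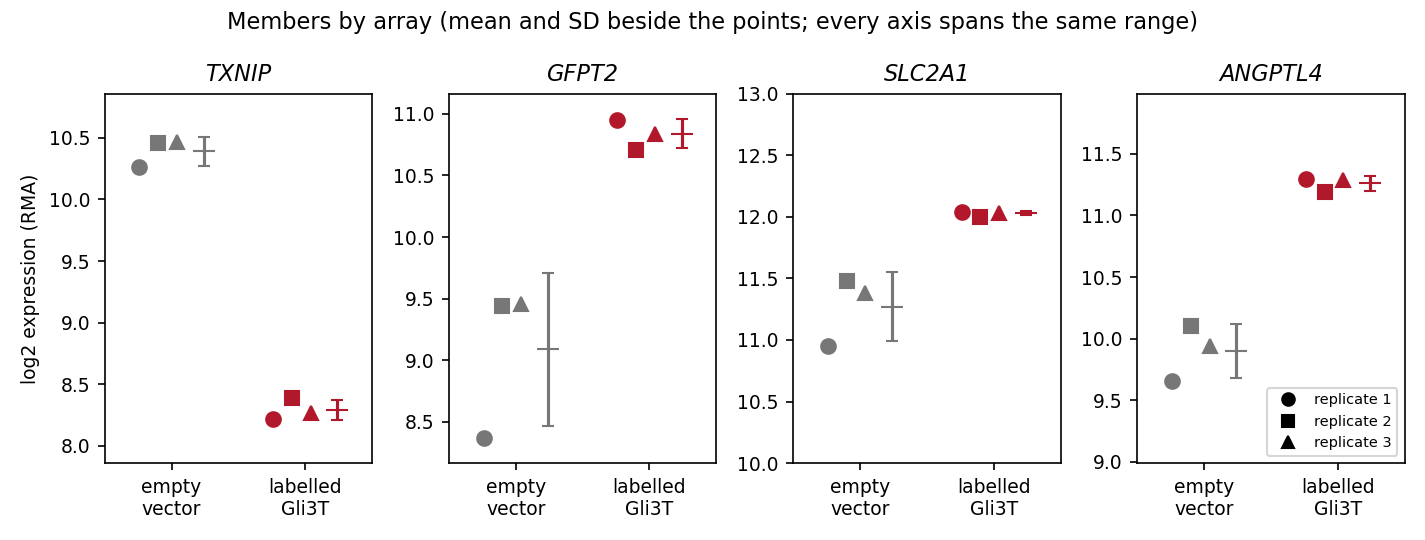
Log2 expression of TXNIP, GFPT2, SLC2A1 and ANGPTL4 in each array, with symbols for replicates 1, 2 and 3 and the mean ± SD (n = 3) beside them. TXNIP has means of 10.39 and 8.29, the other genes are higher in the arrays labelled Gli3T, and empty vector replicate 1 (circle) is the lowest grey point in every panel.

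**Figure D2:**
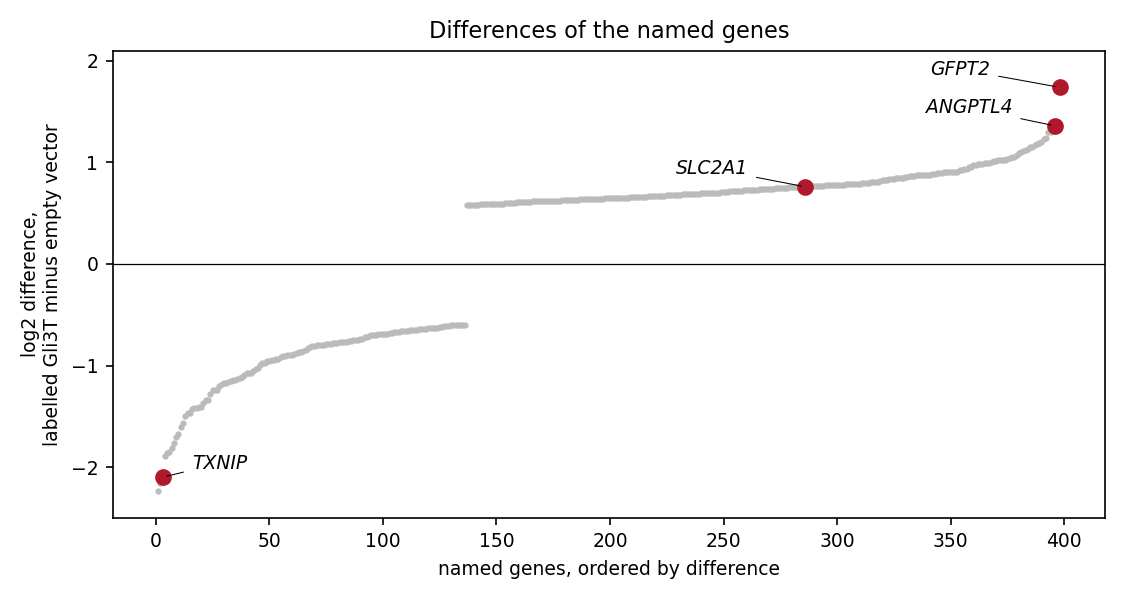
Log2 difference (labelled Gli3T minus empty vector) of the 398 named genes in order, with the members in red. TXNIP lies near the low end at -2.10, GFPT2 at the top at 1.74, ANGPTL4 just below it at 1.36 and SLC2A1 at 0.76 near the middle of the 262 positive differences, whose median is 0.74.

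The spread within the empty-vector group is not free of how the members were chosen. A low empty-vector array enlarges the difference of a gene that is higher in the arrays labelled Gli3T, and such genes entered the list by that difference. The shares below set selected genes against unselected probe sets and are descriptions. All 4 members were lowest in empty vector replicate 1, and each was compared there with probe sets whose mean level lay within 0.5 log2 of its own. GFPT2 read 1.08 below the mean of replicates 2 and 3, a difference of -1.08, where the median of 4489 probe sets of its level was -0.13. Of these probe sets 0.757% were further below. SLC2A1 differed by -0.48 against a median of -0.12, with 4.77% of 1951 probe sets further below. For ANGPTL4 the difference was -0.35 against -0.18, with 25.8% further below, and for TXNIP -0.21 against 0.01, with 31.0% further below. Among the arrays labelled Gli3T, 9.82% of probe sets of its level had a larger SD than GFPT2, and 85.1% had a larger SD than SLC2A1. These shares describe 6 arrays, and probe sets are not independent replicates.

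**Figure D3:**
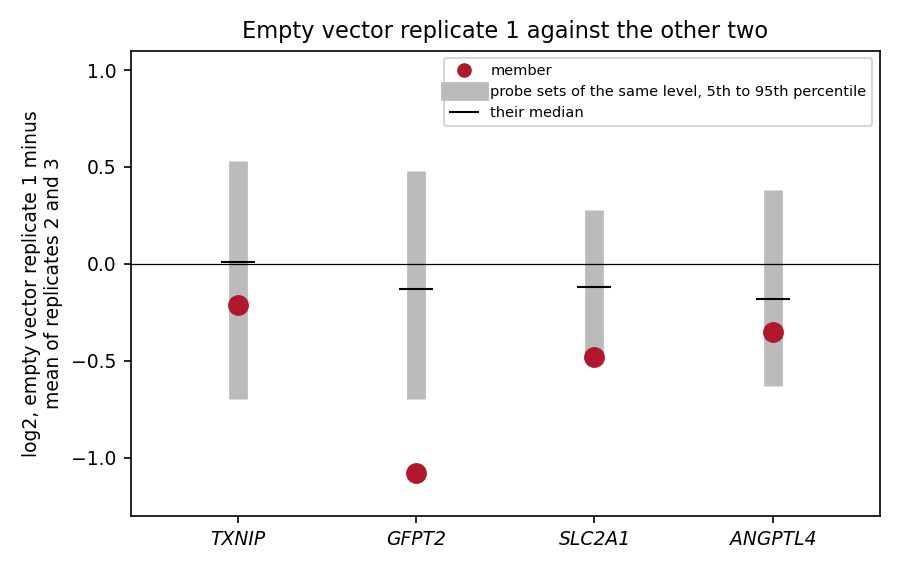
Empty vector replicate 1 minus the mean of replicates 2 and 3 on the log2 scale for each member (red), with the 5th to 95th percentile (grey bar) and median (black line) of probe sets of the same level. GFPT2, at -1.08, lies below its bar, SLC2A1, at -0.48, lies at the end of its bar, and ANGPTL4 and TXNIP lie inside theirs.

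The pathways around the members were followed through 11 lists with 170 different genes. Gene names were at hand only for the authors' selected table, so 12 of the 170 could be read, the 4 members and 8 others. All 8 others were called by limma at an adjusted p of 0.05, as were 98.2% of the 398 named genes, which had been selected for this difference, so nothing can be read from that count. None of the 8 was called without empty vector replicate 3 or without any 1 of the arrays labelled Gli3T, where few or no probe sets were called at all. The median log2 difference was 0.65 over the named genes and -0.05 over all probe sets. The lists on the pentose phosphate pathway and the thioredoxin system held no gene that could be read. ARRDC3, TXN, GFPT1, SLC2A3, PDK4, LPL and HK2 were likewise not analysed here.

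ARRDC4, an alpha-arrestin related to TXNIP and like it a target of MondoA, was lower too. It read 8.86, 8.68 and 8.86 in the empty-vector arrays and 8.00, 7.83 and 8.16 in the arrays labelled Gli3T. Its log2 difference was -0.80 ± 0.11 (SE), or 1.75-fold, against 4.29-fold for TXNIP. TXNIP and ARRDC4 were the 2 genes read from the list of 10 on alpha-arrestins and carbohydrate-responsive transcription. ARRDC4 was not lowest in empty vector replicate 1.

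Among 33 genes of glycolysis and lactate handling, HK1 and PDK3 could be read, and both were higher in the arrays labelled Gli3T. HK1, a hexokinase that traps glucose in the cell as its phosphate, went from 9.65 ± 0.12 to 10.29 ± 0.02 (SD, n = 3 each), a log2 difference of 0.64 ± 0.07 (SE). PDK3, a kinase that holds back pyruvate dehydrogenase, differed by 0.73 ± 0.13 (SE), and by 0.61 without empty vector replicate 1. Both differences were close in size to that of SLC2A1. The 262 higher named genes (65.8% of 398) had a median of 0.74, and no named gene differed by less than 0.58. Neither the direction nor the closeness is therefore read as a result about these genes.

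The list of 21 hypoxia-inducible factor targets held SLC2A1 and ANGPTL4 and 3 further genes that could be read, all higher. Of the 398 named genes 262 (65.8%) were higher, so nothing can be read from that shared direction. DDIT4, an inhibitor of mTOR signalling, differed by 1.03 ± 0.13 log2 (SE), or 2.04-fold. VEGFA, the angiogenic growth factor gene, differed by 0.69 ± 0.10 (SE), and EGLN1, the prolyl hydroxylase that marks the factor for destruction, by 0.65 ± 0.09 (SE). VEGFA and DDIT4 were highest, not lowest, among the empty-vector arrays in replicate 1, at 9.71 and 9.47. Their differences were larger without it, at 0.78 and 1.12, whereas those of SLC2A1 and ANGPTL4 were smaller. EGLN1 read 10.13, 10.39 and 10.28, lowest in replicate 1, and its difference was 0.58 without that array.

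In the nutrient-sensing list SESN2, a stress-induced inhibitor of mTOR complex 1, was lower with a log2 difference of -0.86 ± 0.09 (SE), opposite to DDIT4 of the same list. PIK3R1, the regulatory subunit of PI3-kinase in insulin signalling, was higher by 1.23 ± 0.22 (SE). Its empty-vector arrays read 9.30, 9.89 and 10.02, and it differed by 1.01 without the first of these.

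**Figure D4:**
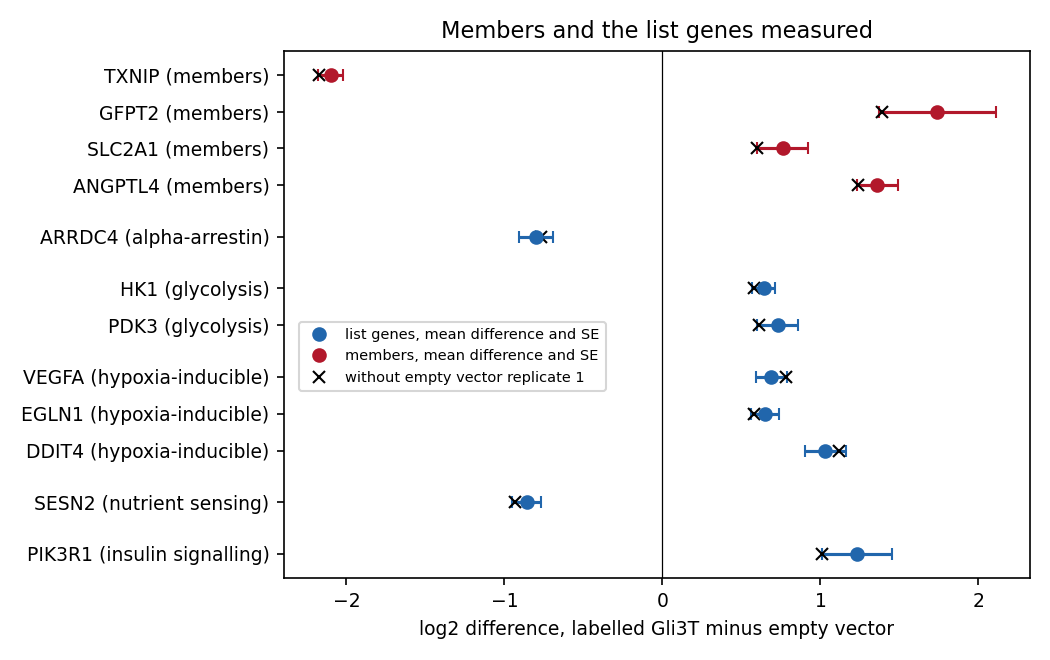
Log2 difference (labelled Gli3T minus empty vector) with its SE for the members (red) and the 8 other list genes read (blue), and the value without empty vector replicate 1 (cross). TXNIP, ARRDC4 and SESN2 lie below 0 and the other 9 genes above it, and the cross of GFPT2, at 1.39, is the furthest from its point.

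The genes most like each member were found by the root mean square distance between profiles over the 6 arrays, each profile set to 0 at its empty-vector mean, among the other 397 named genes. For SLC2A1 they were LYN, a SRC-family kinase gene, at 0.03 log2 and PDGFA, a platelet-derived growth factor gene, at 0.03. For ANGPTL4 they were ARRB1, which encodes beta-arrestin 1, at 0.03, the serine protease gene TMPRSS2 at 0.08 and TBC1D8 at 0.14. GFPT2 had no profile as close. Its nearest were the chemokine gene CX3CL1 at 0.34, and ANGPTL4 and TMPRSS2 at 0.37 each. TXNIP had no close profile either. RND3 lay at 0.27, and the small nucleolar RNAs SNORD25 and SNORA1 at 0.38 and 0.41. These distances take in the difference between the groups and the shared low array, and with 6 arrays many genes can come close. They were not scaled to the size of the difference, by which TXNIP had rank 3 and GFPT2 rank 9 of the 398 named genes. The lack of a close profile for these 2 genes may therefore restate that size.

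The value table also settled how the members stand in the damaged deposited table. The TXNIP row there is 1 of 139 displaced rows, whose first sample cell holds no log2 value. Read 1 cell to the left, 5 cells of that row lay within 0.0103 log2 of the value table. In 135 displaced rows with a value table entry, the second to the sixth sample columns all lay within 0.1 log2 when read so. GFPT2, SLC2A1 and ANGPTL4 stand in ordinary rows, where the first 5 sample columns lay within 0.0118 log2 of the value table as headed. Their sixth cells did not go with their rows. They held 10.54, 10.01 and 11.03, against 10.84, 12.03 and 11.29 in the value table for Gli3T replicate 3. Taken as headed, the sixth cell would have put SLC2A1 below all 3 empty-vector arrays in that array.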

How the data were processed

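The authors deposited a value table of 32321 probe sets by 6 arrays on the log2 scale, and a table of 405 named genes they had selected, also log2. RMA, oligo and limma are named per the submitters' processing notes, without versions. The limits of the selection, the array annotation and the genome build are not given in the sources used here. Groups came from the sample titles. The table of selected genes had 1 column of values whose header named no sample, which was not used, and rows with a first sample value of at most 1.0 were treated as displaced by 1 cell. From the value table, means, SDs, differences and their standard errors were calculated. limma 3.58.1 in R 4.3.3 was fitted to all probe sets with 2 groups and Benjamini-Hochberg adjustment, and was tested on simulated data. There it called 143 of 200 planted changes and 7 of 32121 unchanged probe sets. The simulation gave both groups the same SD for each probe set, whereas the median SDs here were 0.18 and 0.08. It therefore does not show how the fit performs with such unequal spread. Python 3.11.15, pandas 2.3.3, NumPy 2.4.6 and matplotlib 3.10.9 were used. Of the gene symbols, 358 were current in the RefSeq table of GRCh38.p14, 38 were older names and 2 had no entry.

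The members, the gene lists and the motifs were chosen with earlier results of these data known. The genes named were the members, GLI3, up to 5 called genes per list, the closest relatives or partners of the members, and the 3 nearest profiles per member, of which 1 is not reported here. Where this rule met genes without a name in the table of selected genes, they were not analysed. The planned counts of whole lists were therefore limited to named genes. The alternatives were array weights, a mean trend, the replicate number as a block, limits on level or naming, another normalisation, centring, leaving out each array, and the cells of the deposited table.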

Additional observations from a re-analysis of the deposited data

How the results depend on the processing

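The 40 recomputed member differences kept their sign and moved by less than 1 SD, pooled over the 2 groups. They covered the replicate block, another quantile normalisation, median centring, leaving out each array, and cells of the deposited table. From the deposited table, 2 cells per member were used for Gli3T, and for the empty vector 2 for TXNIP and 3 for the others. The TXNIP row also held a matching cell for empty vector replicate 3, which this recomputation left out. The misplaced sixth cells of GFPT2, SLC2A1 and ANGPTL4 were left out. Leaving out an array could not change a sign, as the groups did not overlap. With 3 arrays per group it also could not move a difference by 1 such SD, and the replicate block cannot change a difference. The limit of 1 SD therefore tests nothing for these settings. Without 1 array, TXNIP ranged from -2.17 to -2.07, GFPT2 from 1.39 to 1.93, SLC2A1 from 0.60 to 0.86 and ANGPTL4 from 1.24 to 1.46. With all arrays GFPT2 differed by 1.74. Of the 798 probe sets called by limma, the count was not stable. It was 7104 with array weights, 1292 with a mean trend, 1446 among probe sets at or above the median level and 398 of 398 with named genes only. Quantile normalisation gave 939 and median centring 559. Leaving out 1 array gave 0 to 2178, with 2178 without empty vector replicate 1, 548 without replicate 2 and 69 without replicate 3. Without Gli3T replicate 1, 2 or 3 limma called 0, 1 and 0, with 3471, 3751 and 3469 probe sets at an unadjusted p under 0.05. Such fits leave 2 arrays in a group. Of the 8 list genes beside the members, 0 to 8 were called without 1 array, and all 8 kept their direction. From 0 to 4 members were called over all settings, with 4 under array weights, a mean trend, both limits on the probe sets tested, quantile normalisation and without empty vector replicate 1. With the replicate number as a block, 240 probe sets (51 higher, 189 lower) and 3 of the 8 list genes were called. Deviations from the group means in arrays of the same number correlated at -0.30, -0.14 and 0.04, and 0 arrays correlated best with their own number, so the numbers were not taken to pair the arrays. Probe sets whose groups did not overlap numbered 13176 without empty vector replicate 1 against 7879, an alternative chosen after seeing the data that also follows from having fewer arrays. Signal over background was not known.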

Other observations

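Further genes of sugar, lactate and low-oxygen metabolism were picked from the authors' selected table after their values had been seen, so their shared direction is no evidence that they moved as a group. PGM1, which interconverts glucose phosphates for glycogen, was higher in the arrays labelled Gli3T, going from 10.97 ± 0.13 to 11.66 ± 0.08 log2 (SD, n = 3 each). SLC37A1, a glucose-6-phosphate transporter gene, differed by 0.78 ± 0.07 (SE). SLC16A13, of the monocarboxylate transporter family, differed by 1.09 ± 0.24 (SE) but by 0.87 without empty vector replicate 1, where it read 8.71 against 9.44 and 9.30.

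C7orf68, now named HILPDA, a lipid droplet gene induced by low oxygen, read 8.32, 8.41 and 8.33 in the empty-vector arrays and 9.28, 9.25 and 9.31 in the arrays labelled Gli3T. Its log2 difference was 0.93 ± 0.04 (SE). BHLHE41, a clock-related repressor gene that low oxygen also induces, differed by 0.73 ± 0.03 (SE). Both had narrow groups in which empty vector replicate 1 did not stand apart, unlike GFPT2 and SLC2A1.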
